A study of Mus musculus with 7 samples.

Results

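Crosslink sites in exons of long non-coding RNA (lncRNA) genes were examined in an iCLIP data set for DENR from mouse NIH3T3 fibroblasts. A listed site was a member when it lay, on the strand of the gene, in an exon of a gene that GENCODE M21 types as lincRNA, antisense, processed transcript, sense intronic, sense overlapping, bidirectional promoter lncRNA or macro lncRNA. Sites in a protein-coding exon of that strand, on the mitochondrial chromosome or in the pre-rRNA copy on chromosome 17 were left out, as were the genes Gm15564 and AA474408. The rule used the place of a site and not its score, and it found 237 of the 23288 distinct positions listed over all libraries (build mm10, identical to GRCm38). These positions made up 264 sites over the libraries and lay in 35 of 10151 annotated lncRNA genes, or 0.345% of them.

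The libraries fell into 3 groups. In the DENR overexpressing group (n = 3), cells were transiently transfected with Denr in a FLAG-Venus lentiviral vector and DENR was pulled down with an anti-DENR antibody. In the non-transfected group (n = 2), the same antibody pulled down endogenous DENR, and more dishes of cells were used for each experiment. In the IgG group (n = 2), a control IgG replaced the antibody. All cells were irradiated with UV-C, and the anti-DENR pull-downs did not separate tagged from endogenous DENR. The sources do not state that replicates came from separate cultures, so the p-values below measure only the spread between these libraries.

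Transcripts of lncRNA genes carry no long open reading frame and range from nuclear RNAs that organise chromatin or nuclear bodies to cytoplasmic RNAs that can be bound by ribosomes. Several of them are host genes whose introns hold small nucleolar RNAs (snoRNAs), which are trimmed from the excised introns and guide chemical modification of ribosomal RNA in the nucleolus. Host transcripts such as Gas5 also have spliced exons that are exported and loaded with ribosomes, and they are then degraded. DENR is a factor of translation reinitiation that works on the small ribosomal subunit with its partner MCTS1. In iCLIP, reverse transcription tends to stop at the crosslinked nucleotide, so that a listed position is taken as the place where protein and RNA were joined. Whether each listed position is such a place was not tested.

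The sequences below show the RNA around the positions that the results turn on, namely the highest-scoring position of every gene with at least 4 positions and each position listed in at least 3 DENR libraries. Each run holds 21 nucleotides of a GENCODE M21 transcript at the given mm10 coordinates, 5′ to 3′ and written with t for uridine, and the capital marks the listed position. An exon labelled spliced belongs to a transcript not typed as retained intron, whether or not that transcript is spliced.

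Gas5, Snord80 nucleotide 3, chr1:161037593-161037613, plus strand: caaacaagccGataccatgat
Gas5, Snord80 nucleotide 4, chr1:161037594-161037614, plus strand: aaacaagccgAtaccatgatg
Gas5, Gm25789 nucleotide 4, chr1:161038301-161038321, plus strand: cctactccagAatacatgatg
Snhg1, retained intron, chr19:8725190-8725210, plus strand: cagccttttcAaggtttgtta
Zfas1, retained intron, chr2:167063319-167063339, plus strand: caagttttttTtttgttaacc
Snhg8, spliced exon, chr3:123507676-123507696, minus strand: gatattctgtAatgggccttt
1110038B12Rik, retained intron, chr17:34952302-34952322, minus strand: gcggtgtgggGccgggtatga
B930036N10Rik, 1 nt 5′ of Gm24871, chr1:171503154-171503174, minus strand: gacagctgggTatactctggt
B930036N10Rik, 2 nt 5′ of Gm24871, chr1:171503155-171503175, minus strand: ggacagctggGtatactctgg
B930036N10Rik, 3 nt 5′ of Gm24871, chr1:171503156-171503176, minus strand: aggacagctgGgtatactctg
Rmrp, RNase MRP RNA nucleotide 208, chr4:43492841-43492861, minus strand: cgtcagctcaCatagtgacgc
Malat1, spliced exon, chr19:5797970-5797990, minus strand: aaatgcttacGatcatctcat
Miat, spliced exon, chr5:112228122-112228142, minus strand: tctctgcactCtcatcgcgac
3930402G23Rik, spliced exon, chr8:10924960-10924980, minus strand: agaggttgggGagggagtcgg

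The 2 Snord80 runs overlap, and so do the 3 runs before Gm24871. The Zfas1 position lay within an unbroken run of uridines, whereas the 1110038B12Rik and 3930402G23Rik positions lay among guanosines.

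The lists differed strongly in length. The DENR overexpressing libraries listed 4012, 16137 and 10209 sites and the non-transfected libraries 4324 and 7185, against 19 and 234 in the IgG libraries. A score accompanies each site but read totals do not, which leaves library depth unknown, and limits on shares cover counting error only. DENR overexpressing replicate 2 contributed the longest list and 154 of the 264 lncRNA exon sites, and leading counts are therefore also given without it.

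The first comparison asked how much of each list lay in lncRNA exons and whether this depended on DENR overexpression. The 3 DENR overexpressing libraries held 5, 154 and 59 lncRNA exon sites, or 0.125%, 0.954% and 0.578% of their lists. The 2 non-transfected libraries held 5 and 41 sites, or 0.116% and 0.571%. The groups overlapped, with a low and a high library in each. The mean share was 0.552% ± 0.415 (SD, n = 3) after overexpression and 0.343% ± 0.322 (SD, n = 2) without it, a difference of 0.209 percentage points (two-sided exact permutation test, p = 0.4, adjusted p = 0.5 by Benjamini-Hochberg over 5 tests, smallest possible p 0.2). The direction was not stable, the difference being -0.0183 percentage points when non-transfected replicate 1 was left out and -0.195 when sites within 15 nt were merged.

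The order of the shares followed the order of list length among the 3 longest lists. When each DENR list was cut to the length of the shortest by score, the shares were 0.125%, 0.573% and 0.349% after overexpression and 0.125% and 0.349% without it. The part of list length in the remaining spread was not tested.

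**Figure D1:**
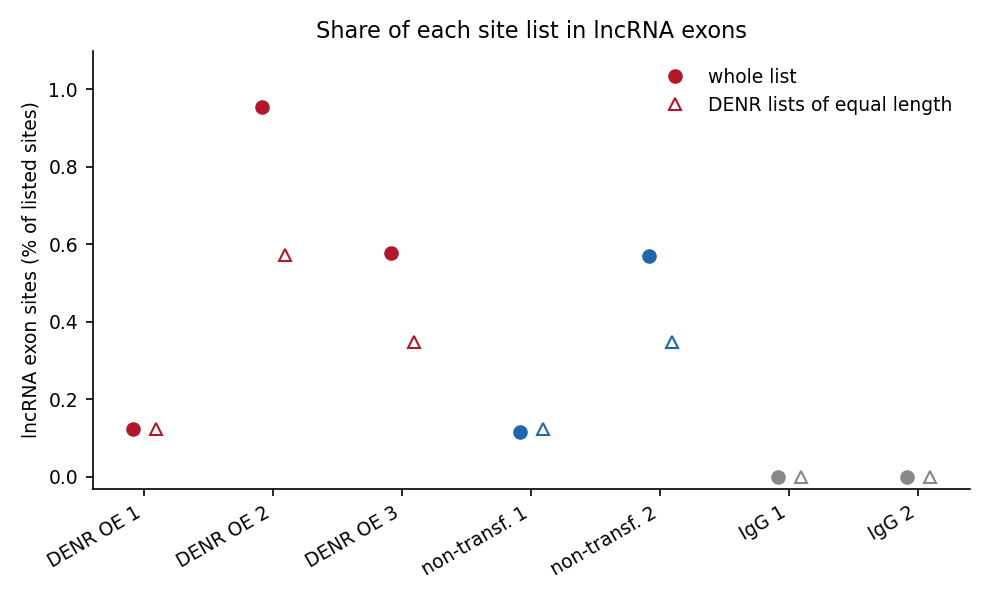
Share of each site list in lncRNA exons, in percent of listed sites (vertical axis), for the 7 libraries (horizontal axis). Filled circles are whole lists and open triangles are DENR lists cut by score to equal length, with the IgG lists whole; the DENR libraries lie between 0.116% and 0.954% and both IgG libraries at 0.

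Neither IgG library listed a lncRNA exon site. This was 0 of 19 sites in IgG replicate 1 and 0 of 234 sites in IgG replicate 2. The exact (Clopper-Pearson) 95% interval allows a share of up to 17.6% in IgG replicate 1 and up to 1.56% in IgG replicate 2. The DENR libraries averaged 0.469% ± 0.354 (SD, n = 5). This mean depended on what was counted, being 0.307% without sites inside small RNAs, 0.130% of summed score and 0.900% without dense windows (2000-nt windows in which each DENR list had 10 or more sites). The difference reached the smallest p that 5 against 2 libraries allow (two-sided exact permutation test, p = 0.095, adjusted p = 0.469), and every DENR share lay below the limits that the short IgG lists allow. A lower share in the control was therefore not detectable at this depth.

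Relative to other long RNAs, lncRNA exons were a minority. Of the sites in exons of either lncRNA or protein-coding genes, lncRNA exons held 1.99%, 8.17% and 4.44% in the DENR overexpressing libraries and 1.59% and 6.19% in the non-transfected ones. The means were 4.87% ± 3.11 (SD, n = 3) and 3.89% ± 3.25 (SD, n = 2), and the difference of 0.977 percentage points was within the spread of the libraries (two-sided exact permutation test, p = 0.8, adjusted p = 0.8). Leaving out DENR overexpressing replicate 2 made it -0.675, and leaving out non-transfected replicate 1 made it -1.32. Annotated lncRNA exons span 16.0 Mb and protein-coding exons 97.4 Mb, and lncRNA exons held 0.289 ± 0.187 (SD, n = 5) times as many sites per length as protein-coding exons. Neither class was matched for expression, which these files do not measure.

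Sites were concentrated in host genes of snoRNAs. Genes that hold an annotated snoRNA on their strand made up 71 of the 10151 lncRNA genes and 1.14% of lncRNA exon length, and they held 169 of the 237 positions (71.3%) in 9 of the 35 genes. Without DENR overexpressing replicate 2 they held 66 of 100 positions. The 237 positions formed 68 clusters of positions within 15 nt of each other, and Gas5 and Snhg1 held 134 of the 169. Expression was not matched between other lncRNA genes and those that hold a snoRNA. By library, the sites in such genes were 5 of 5, 110 of 154 and 34 of 59 after overexpression and 1 of 5 and 32 of 41 without it, so non-transfected replicate 1 was the library with few. Of the listed snoRNA host genes, 6 of the 15 that are annotated as lncRNA genes had a site (Gas5, Snhg1, Snhg8, Zfas1, Snhg3 and Snhg17), with 153 positions between them. The host genes Epb41l4aos, Snhg5, Snhg6, Snhg9, Snhg12, Snhg14, Snhg15, Snhg18 and Snhg20 had none.

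**Figure D2:**
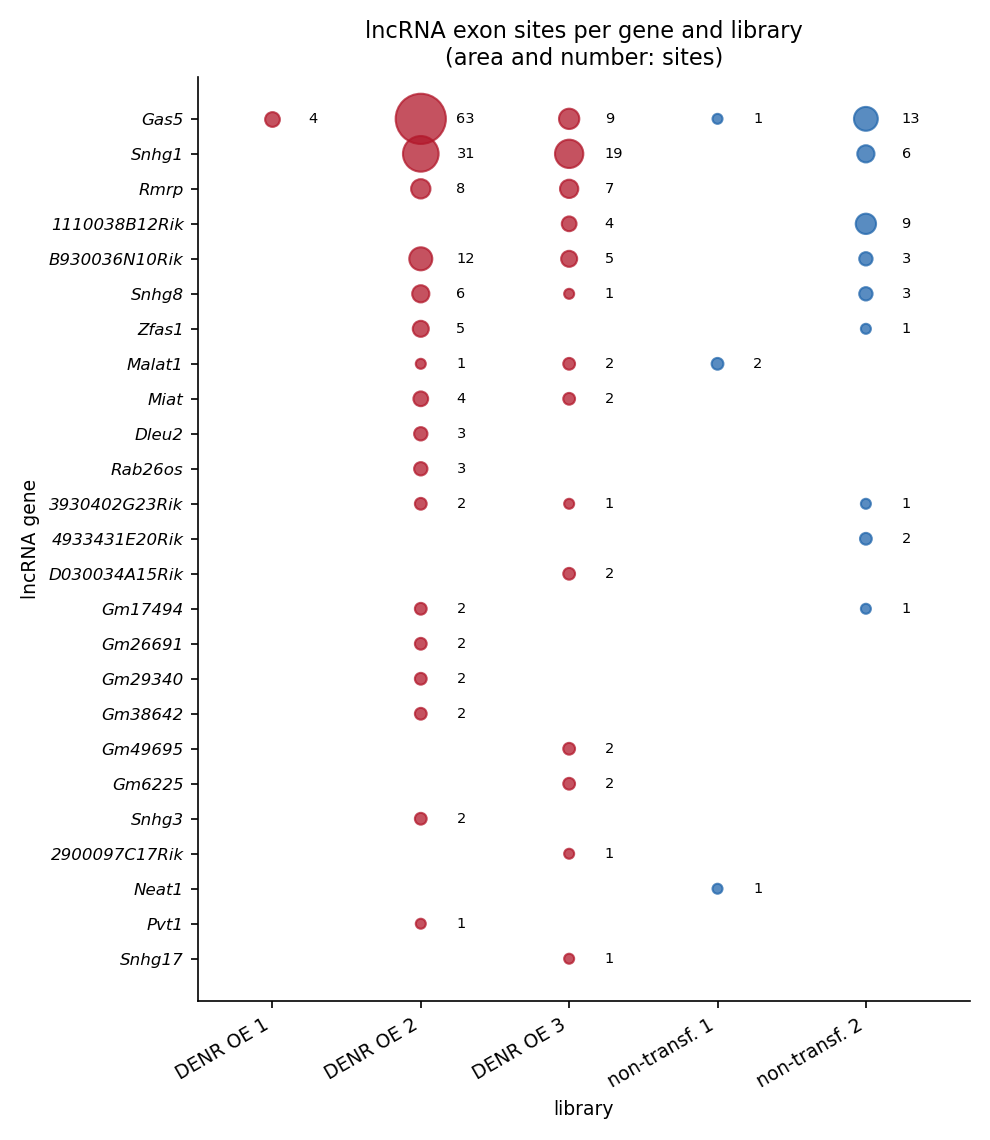
Number of listed lncRNA exon sites per gene (vertical axis, every gene with at least 2 positions or in 1 of the gene lists) and DENR library (horizontal axis); disc area and the number beside it give the sites, red after overexpression and blue without transfection. Gas5 is the gene with sites in all 5 libraries, with 4, 63, 9, 1 and 13 sites from left to right.

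Gas5, a host gene of snoRNAs whose spliced RNA accumulates in growth-arrested cells, held 81 positions (34.2% of all), the highest number of any lncRNA gene. This rank rested on DENR overexpressing replicate 2, without which Gas5 held 22 of 100 positions and Snhg1 held 25. It is a processed transcript gene on the plus strand of chromosome 1 (161034422 to 161038539) with 25 annotated transcripts. It held 4, 63 and 9 sites in the DENR overexpressing libraries and 1 and 13 in the non-transfected ones, and no other lncRNA gene was listed in all 5. The libraries differed in where along Gas5 the sites lay. All sites of DENR overexpressing replicates 1 and 3 and of non-transfected replicate 2 lay inside snoRNA genes, whereas in DENR overexpressing replicate 2 only 7 of 63 did. The other sites of that library lay in exons of retained-intron transcripts (41) and in spliced exons (15). The single site of non-transfected replicate 1, at position 161037264 with a score of 3, was also listed in DENR overexpressing replicate 2 with a score of 8.

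Within Gas5, sites fell on 4 of its 9 snoRNA loci. Snord80, a box C/D snoRNA at 161037601 to 161037681, held 8 positions within its first 16 nucleotides, with 4 sites in DENR overexpressing replicate 1, 3 in replicate 3 and 6 in non-transfected replicate 2. Nucleotides 3 and 4 of Snord80 were listed in all 3 of these libraries, nucleotide 4 with scores of 2, 5 and 3. A shorter annotated Snord80 entry starts 3 nt further 3′, so numbering here follows the longer entry. Gm25789 at 161038308 to 161038383 held 8 positions within nucleotides 2 to 12, and its nucleotide 4 scored 10 in DENR overexpressing replicate 2 and 9 in the second non-transfected library. In contrast to these sites at the 5′ end, the snoRNA gene Mir5117 held its 7 positions further inside, at nucleotides 15 to 38, with 6 sites in DENR overexpressing replicate 3 and 1 in replicate 2. Gm22489 held 2 positions, both in non-transfected replicate 2.

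**Figure D3:**
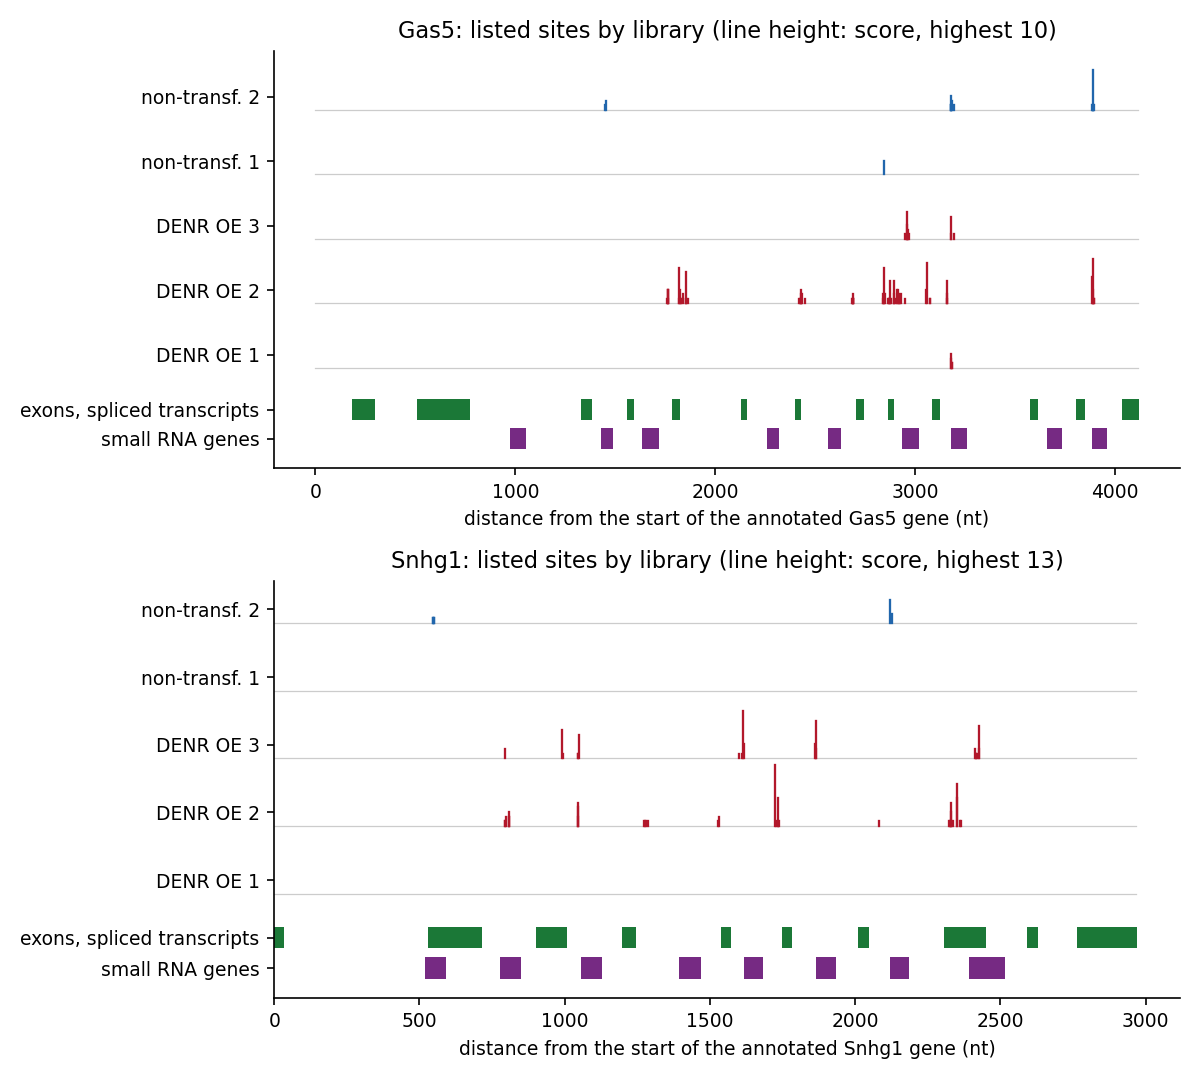
Listed sites along Gas5 (top) and Snhg1 (bottom), by distance from the start of the annotated gene in nt (horizontal axis) and by DENR library (rows); line height is proportional to the score of a site, on 1 scale for both genes. Green bars are exons of spliced transcripts and purple bars snoRNA genes; sites of DENR overexpressing replicate 2 mostly lie in or beside exons, and those of replicate 3 and non-transfected replicate 2 mostly lie at snoRNA genes.

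Snhg1, a further snoRNA host gene on the plus strand of chromosome 19 (8723475 to 8726443), held 53 positions, with 31 sites in DENR overexpressing replicate 2, 19 in replicate 3 and 6 in non-transfected replicate 2. No Snhg1 site was listed in DENR overexpressing replicate 1 or non-transfected replicate 1. Sites lay inside, or 1 to 3 nt before, 6 of its 8 snoRNA genes, and at 5 of these the sites came from a single list. Snord22 held 6 sites and the 5′ ends of Gm22680 and Gm22744 held 3 and 2 in DENR overexpressing replicate 3, Gm25855 held 4 and Gm23246 held 2 in non-transfected replicate 2, and Gm25894 held 6 in DENR overexpressing replicate 2 and 1 in replicate 3. The sites at Gm22680 and Gm22744 lay 1 to 3 nt before the annotated 5′ end of the snoRNA, with scores of up to 8 and 10. The highest score in Snhg1 was 13, at 8725200 in DENR overexpressing replicate 2, and a cluster at 8724519 to 8724523 was listed in replicates 2 and 3 with summed scores of 11 and 7, at 8 to 12 nt before a further snoRNA gene.

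Among the other host genes, Snhg8 held 10 positions, with 6, 1 and 3 sites in DENR overexpressing replicates 2 and 3 and non-transfected replicate 2, none of them shared. Zfas1, which holds Snord12, held 1 site in non-transfected replicate 2 and 5 in DENR overexpressing replicate 2, the former inside Snord12. The gene 1110038B12Rik, which holds Snord52, had 4 sites in DENR overexpressing replicate 3 and 9 in the second non-transfected library, and 3 of the latter lay 1 to 3 nt before the 5′ end of Snord52. Rab26os held 3 sites in DENR overexpressing replicate 2, of which 1 lay 3 nt before Snord60. Snhg3 held 2 sites in that library and Snhg17 held 1 in DENR overexpressing replicate 3.

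Over all genes, positions were sorted by what else the annotation places there. Small RNA genes held 67 positions (28.3%), and 12 more (5.06%) lay 1 to 3 nt before the 5′ end of one. Exons of lncRNA transcripts of other types than retained intron, outside small RNAs, held 77 (32.5%) and are called spliced exons here. Unspliced transcripts with a single exon, such as that of D030034A15Rik, are among them. In exons of retained-intron transcripts only lay 79 (33.3%). The remaining 2 positions, in the processed transcript gene Gm17494, overlapped the RefSeq tRNA gene n-TRtct2, whose strand was not used here. The composition was not the same in each library, with sites in or just before small RNAs being 80% of 5, 22.1% of 154 and 55.9% of 59 after overexpression and 0 of 5 and 63.4% of 41 without it. Without DENR overexpressing replicate 2, 44 of the 100 positions left lay inside small RNAs, 25 in spliced exons and 19 in retained introns. Reads from a mature snoRNA, from its host intron and from an unspliced host transcript cannot be told apart by position.

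**Figure D4:**
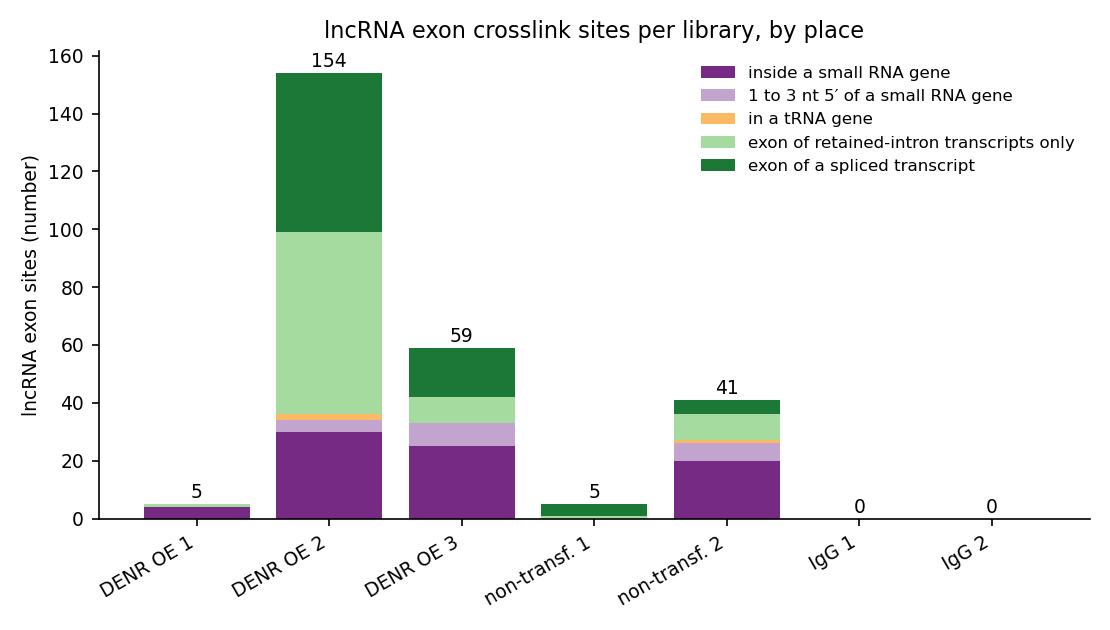
Number of lncRNA exon sites per library (bars, number on top), split by place: inside a small RNA gene, 1 to 3 nt before one, in a tRNA gene, in exons of retained-intron transcripts only, or in exons of other transcripts, labelled as spliced. DENR overexpressing replicate 2 holds 154 sites, of which 55 are in spliced exons, and non-transfected replicate 2 holds 41, of which 20 are inside small RNAs.

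Most positions in retained introns lay close to spliced exons, and some of them close to snoRNA genes as well. Of the 79, 31 lay 8 to 29 nt before the start of a spliced exon, where introns usually carry a polypyrimidine tract, with a median of 18 nt. A further 37 lay 1 to 40 nt after the end of a spliced exon, and 19 of these also lay 6 to 38 nt before the 5′ end of a snoRNA gene. Exons and snoRNA genes are close together in these hosts, since 39.5% of the retained-intron nucleotides after an exon, weighted by positions, lay within 40 nt before a small RNA gene. Together these were 86.1% of the retained-intron positions, whereas 36.4% of the retained-intron nucleotides of the same genes, weighted by their positions, lay within 40 nt of an exon on either side. DENR overexpressing replicate 2 held 27 of the sites before and 33 of those after an exon, and without this library 11 of 19 positions lay within the same distance. Clusters before an exon were found in Gas5 (20 positions), Snhg1 (7), Snhg8 (3) and AC121821.1 (1). The only such Gas5 cluster seen in a second library was that at 161037259 to 161037272, listed in DENR overexpressing replicate 2 and the first non-transfected library. AC121821.1 was named after its value was seen.

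Small RNAs outside snoRNA hosts accounted for a further pair of genes. Rmrp is typed as a lincRNA gene but encloses the gene of the RNase MRP RNA, which takes part in pre-rRNA processing. Its 14 positions formed a single cluster, at nucleotides 195 to 220 of the 271-nt RNA (43492839 to 43492864 on chromosome 4), with 8 sites in DENR overexpressing replicate 2 and 7 in replicate 3. The summed scores were 18 in each library, and nucleotide 208 was the position that both listed. No site was listed in the other 3 DENR libraries.

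B930036N10Rik, an antisense gene whose start overlaps Alyref2 on the other strand, encloses the snRNA gene Gm24871. Its 12 positions comprised 9 inside Gm24871, at nucleotides 78 to 93, and 3 that lay 1, 2 and 3 nt before its 5′ end. All 3 of the latter were listed in DENR overexpressing replicates 2 and 3 and non-transfected replicate 2, and in each library the nucleotide next to the gene had the highest score of the 3 (19, 8 and 6 in replicate 2, 5, 2 and 1 in replicate 3, and 3, 1 and 1 in the non-transfected library). The score of 19 was the highest of any lncRNA exon site. Around 4 of the inner positions, a 41-nt window had a near-identical match (at least 38 nt) in other snRNA genes, Rnu5g of the U5 spliceosomal RNA among them, so these sites may not belong to this locus. The search covered annotated M21 transcripts only, so copies elsewhere in the genome were not looked for. In it, windows with such a match were found for 6 of the 237 positions, the others being in 2900097C17Rik and 5430405H02Rik. The window in 5430405H02Rik matched 1151 other genes. The windows of the 3 positions before Gm24871 lay partly upstream of that gene. They could not match another snRNA gene over 38 nt, so whether those sites belong to this locus was not tested.

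Of the lncRNAs known for nuclear roles, 5 of 20 had a site, with 14 positions in all. Malat1, an abundant RNA of nuclear speckles, held 1 and 2 sites in DENR overexpressing replicates 2 and 3 and 2 in non-transfected replicate 1, and no position was shared. The highest score in Malat1 was 8, at 5797980. Miat held a single cluster at 112228130 to 112228134, with 4 sites and a summed score of 11 in DENR overexpressing replicate 2 and 2 sites and a summed score of 3 in replicate 3. Both Miat sites of replicate 3 were also listed in replicate 2. Dleu2, host of the microRNAs 15a and 16-1, held 3 adjacent sites with a score of 1 each and Pvt1, a neighbour of Myc, held 1 site, all in DENR overexpressing replicate 2. Neat1, the scaffold of paraspeckles, held 1 site with a score of 3 in non-transfected replicate 1. The other 15 genes of the group, Xist, Meg3, Kcnq1ot1 and Tug1 among them, had no listed site, which does not show that they were not bound.

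Dleu2 was grouped here with the nuclear lncRNAs, and of the 8 annotated genes in the separate list of microRNA hosts none had a listed site. Of 6 other well-known lncRNAs, 2900097C17Rik, the mouse counterpart of Norad that binds Pumilio proteins in the cytoplasm, held 1 site with a score of 5 in DENR overexpressing replicate 3, and its window matched the pseudogene Gm7292. The lincRNA gene 3930402G23Rik was the remaining gene with a position in 3 libraries. Position 10924970 was listed with scores of 5 in DENR overexpressing replicate 2, 8 in replicate 3 and 5 in non-transfected replicate 2. The antisense gene 4933431E20Rik held 2 adjacent sites in the second non-transfected library and the lincRNA gene D030034A15Rik held 2 sites in DENR overexpressing replicate 3, each with a score of 1. Of all 35 genes, 14 had a single position, 24 were listed in 1 library and 6 in at least 3. No site of any library lay on the opposite strand of an exon of these 35 genes.

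Next, it was asked whether lncRNA positions recurred between libraries. Of the 237 positions, 216 were listed in 1 DENR library, 15 in 2 and 6 in 3. Of the 21 recurrent positions, 10 lay inside small RNAs and 3 just before one, 4 lay in retained introns, 3 in spliced exons and 1 in the tRNA gene. In each library, the share of lncRNA sites found at the identical position in another DENR library was 60% of 5, 11% of 154 and 25.4% of 59 after overexpression and 20% of 5 and 29.3% of 41 without it. The mean was 29.1% ± 18.6 (SD, n = 5), beside 30.9% ± 16.4 for protein-coding exon sites. The protein-coding value rested on sites in the dense windows, and was 6.97% ± 3.21 without them, while no lncRNA site lay in such a window. The lncRNA value was 16.6% ± 12.3 (SD, n = 5) without the sites inside small RNAs. The libraries serve as reference for each other, so no test was made.

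After overexpression, scores in lncRNA exons reached 3, 19 and 10, and without transfection 5 and 9, against 71, 307 and 451 and 23 and 138 in protein-coding exons. Scores of at least 10 were given to 0 of 5, 3 of 154, 1 of 59, 0 of 5 and 0 of 41 lncRNA sites, and to 24 of 246, 120 of 1730, 77 of 1269, 13 of 309 and 91 of 621 protein-coding sites, in the same order of libraries. Of the 237 positions, 123 had a score of 1 in every library that listed them and 4 reached a score of 10. On the log2 scale, lncRNA sites averaged 0.83, 0.81 and 0.95 after overexpression and 1.62 and 0.56 without it. Protein-coding exon sites averaged 1.27, 1.05 and 1.35, and 1.04 and 1.29. The lncRNA value was thus lower in 4 of 5 libraries, and the mean difference was -0.24 on the log2 scale (two-sided exact sign-flip permutation test over libraries, p = 0.3125, adjusted p = 0.5, smallest possible p 0.062). Its direction depended on how sites were counted, since it was 0.41 with sites within 15 nt merged, 0.18 without the dense windows and 0.06 with each gene counted once.

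Finally, the base at the listed position was read from the transcripts. Over distinct positions, 45.6% of the 237 lncRNA positions were uridines, against 28.6% of the bases in the exons of the same genes weighted by their positions. The share was 40% without DENR overexpressing replicate 2. For protein-coding exons it was 45.3% against 25.9%. By library, uridine was at 20%, 46.8% and 45.8% of lncRNA sites after overexpression and at 40% and 31.7% without it, a mean of 36.8% ± 11.2 (SD, n = 5) against 28.5% ± 0.312 in the exons. It was above the exons in 4 of 5 libraries, and the difference of 8.31 percentage points did not exceed the spread between libraries (two-sided exact sign-flip permutation test, p = 0.1875, adjusted p = 0.469).

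**Figure D5:**
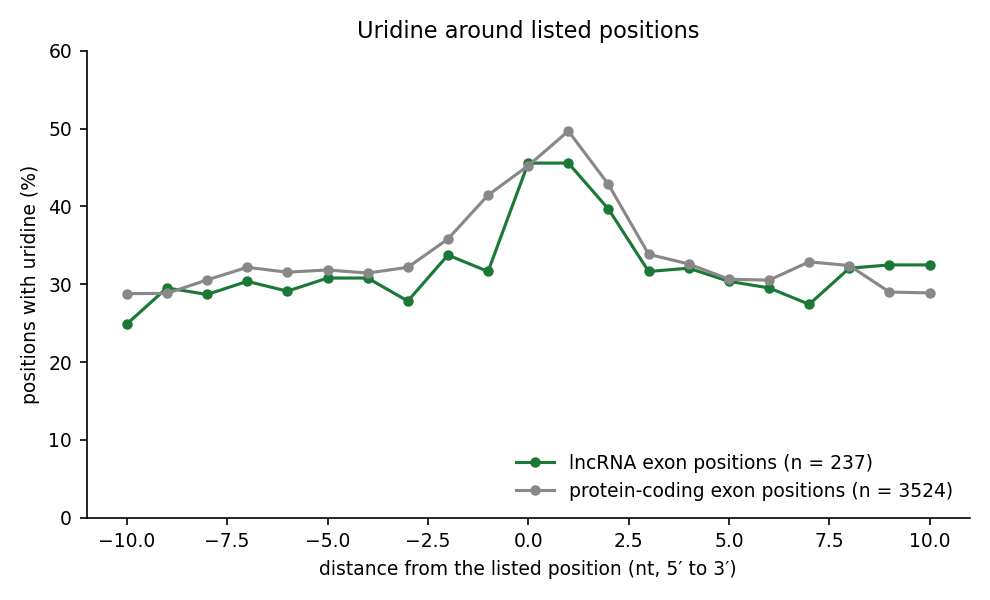
Percentage of positions with uridine (vertical axis) at each distance from the listed position in nt along the transcript (horizontal axis), for 237 lncRNA exon positions (green) and 3524 protein-coding exon positions with a full window (grey). In lncRNA exons, uridine stands at 45.6% at the listed nucleotide and at the next one, 39.7% at the one after and 31.6% just before. In protein-coding exons it stands at 45.2% at the listed nucleotide and is highest at the next one, with 49.7%.

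Uridine differed with the place of a position. It was at 49 of 79 positions in retained introns (62.0%), 33 of 77 in spliced exons (42.9%), 6 of 12 just before small RNAs and 20 of 67 inside small RNAs (29.9%), where the exons of the same genes had 29.6%, 28.7%, 30.4% and 27.0%. Within retained introns, it was at 17 of 31 positions before an exon (54.8%). It made up 38.9% of all retained-intron nucleotides within 40 nt before an exon, weighted by positions. That is a wider stretch than the 8 to 29 nt that held the positions, and uridine within 8 to 29 nt alone was not counted. After an exon it was at 26 of 37 positions (70.3%), against 34.1% of the nucleotides there. Positions of a cluster are neighbours and share sequence, so these shares are given without a test. Without DENR overexpressing replicate 2, 19 of the 79 positions in retained introns and 44 of the 67 inside small RNAs were left. Uridine by place was not split by library, so place and library cannot be told apart here.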

How the data were processed

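The authors mapped reads to mouse build mm10 (Bowtie in the published methods, Bowtie2 in the submitters' processing notes), removed duplicates by unique molecular identifier and called sites per library with iCount peaks (100 permutations, 15-nt flank, false discovery rate 0.05). Sources differ on whether iCount treated annotated regions jointly, and the list of DENR overexpressing replicate 2, with 154 of 264 sites, has no header line that states its settings. The deposited score is a signed whole number, with the strand as its sign, and is not scaled between libraries. Sites were annotated with GENCODE M21 and strand. No genome was used here. The uridine comparison had been planned only with a genome, and was instead made with the bases of M21 transcripts, which have the same build. Shares were compared by exact permutation tests. Named were genes of 4 lists with a site, the 15 genes with most positions and genes with a position in 3 DENR libraries. Members and lists were chosen with earlier results of these data known. The place classes, exon distances, snoRNA-holding genes, matches to other genes and counts without DENR overexpressing replicate 2 were chosen after seeing the data. Of 1800 simulated positions, 100% received the known class, and a uridine share of 60% was recovered as 60%. The known answers came from the same annotation and transcript bases, so these checks cover the lookup code only and not the coordinates of the sites. Python 3.11.15, scipy 1.17.1, pandas 2.3.3 and blastn 2.17.0 were used.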

Additional observations from a re-analysis of the deposited data

Results flagged for a closer look

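The genes Gm15564 and AA474408, which were left out of the lncRNA exon sites, held more sites in each of the 5 DENR libraries than in either IgG library, but by share of listed sites only AA474408 was higher in the DENR libraries than in both IgG libraries. Exons of Gm15564 held 33, 58 and 47 sites in the DENR overexpressing libraries and 25 and 53 in the non-transfected ones, against 0 and 2 in the IgG libraries. Exons of AA474408 held 5, 20 and 14 and 5 and 5 sites, against 0 and 0. Of all listed sites, Gm15564 held 0.823%, 0.359% and 0.460% after overexpression and 0.578% and 0.738% without it, against 0% and 0.855% in the IgG libraries. AA474408 held 0.0696% to 0.137% in the DENR libraries, below the 17.6% and 1.56% that the exact 95% interval of a count of 0 allows in the IgG libraries.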

How the results depend on the processing

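Of 81 alternatives, 9 turned the direction of a difference, and 2 moved a value without a test by more than its SD. No alternative could reach 0.05 in these designs, so the p-values say nothing about stability, and the cause of the changes was not tested. With sites within 15 nt merged, the overexpressing minus non-transfected difference in lncRNA share was -0.195 percentage points of listed sites and -1.82 of long-RNA exonic sites, and the difference in score was 0.41. The score difference was 0.18 without dense windows and 0.0586 with each gene counted once. Read 1 nt upstream of the listed position, uridine was 13.5 percentage points below the exons (-13.5, p = 0.1875, exact sign-flip permutation test). Read 1 nt downstream, it was 21 above (p = 0.062, exact sign-flip permutation test). Both are means over libraries, in which a list with 5 lncRNA sites weighs as much as that with 154. Over distinct positions, 31.6% had uridine 1 nt upstream, against 28.6% in the exons. At a score of at least 10, where 2 libraries had lncRNA sites, recurrence was 0% and the ratio of site density to protein-coding exons was 0.0462. This recurrence required that score in the other library as well. The positions 1 nt before Gm24871 and at nucleotide 4 of Gm25789 were also listed in other DENR libraries with scores below 10. Leaving out each library in turn gave -0.0183 to 0.437 percentage points for the share of listed sites between the DENR groups, 0.347 to 0.557 against IgG, -1.32 to 3.28 for long-RNA exonic sites (-0.675 without DENR overexpressing replicate 2), -0.45 to -0.12 for score, 5.83 to 12.6 for uridine and 20.8% to 31.3% for recurrence. Where 1 library was left in a group, only the difference is given. Same-numbered libraries were not taken as pairs, since not every correlation of their deviations in site numbers over 66 dense windows was above 0.1 (-0.355 between the DENR groups, -0.199 between non-transfected and IgG libraries, 0.572 between DENR overexpressing and IgG libraries). With the replicate number as a block, the differences were 0.196, 0.441 and 1.19 percentage points for the first 3 comparisons, and 0.441 against IgG with the IgG numbers crossed. Members in, or just before, small RNA or tRNA genes were left out in an alternative chosen after seeing the data, as was Lars2, and neither turned a direction. The mean DENR share minus IgG was 0.264 percentage points without these members, 0.307 without those inside small RNAs, 0.304 with lists of equal length, 0.708 with sites merged, 0.900 without dense windows, 0.130 weighted by score and 0.0357 at a score of at least 10. Recurrence was 16.6% without members inside small RNAs. Depth limits the IgG comparison, since 19 and 234 listed sites could hide the DENR shares.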
